A study of Caenorhabditis elegans with 12 samples.

Results

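daf-2(e1370) mutant adults and wild-type N2 adults of the nematode Caenorhabditis elegans were compared after 12 h at 25 °C, at equal temperature and equal time. Both groups had been raised at 15 °C, well fed and uncrowded, and were moved to 25 °C as adults. Each group had 3 arrays, one in each of the replicate sets A, B and 1, so 6 of the 12 arrays of the series entered the comparison. The other 6 came from N2 adults kept at 15 °C and N2 adults after 3 h at 25 °C, with 3 arrays each. Whole-animal total RNA was hybridised to one-colour Agilent arrays. No daf-2 array from 15 °C was analysed, so a difference carried by the mutant at 15 °C cannot be told apart from one that arose during warming. The labels give no age beyond adult. Nothing in them states that the sets came from different cultures, so the p-values rest on array-to-array spread, part of which may be technical.

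daf-2 encodes the only insulin/IGF-1-like receptor of C. elegans. When the receptor is active, the kinases AGE-1, PDK-1, AKT-1 and AKT-2 keep the FOXO factor DAF-16 out of the nucleus. When it is weak, DAF-16 enters the nucleus and changes genes of stress resistance, metabolism and defence. daf-2 mutants are known for long life, fat storage and stress resistance, and the temperature-sensitive e1370 allele drives larvae into the dauer stage at high temperature.

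Values below are relative log2 signals, that is log2 of the processed spot signal minus the 75th percentile of the same array, and per-array values run in the order sets A, B and 1. A difference is daf-2 minus N2 on that scale, with its standard error from the fit. Between 25516 and 36998 probes were well above background on the daf-2 arrays, against 24961 to 36002 on the N2 12 h arrays, with the set 1 array highest in both groups. Set 1 was scanned on another day than sets A and B. The lowest signal well above background was -4.95, -5.30 and -7.63 on the N2 12 h arrays, and -5.23, -4.97 and -7.60 on the daf-2 arrays. A signal between these limits could therefore count as above background in set 1 alone. Across genes, arrays correlated at 0.96 to 0.978 within daf-2 and 0.957 to 0.983 within N2 at 12 h, against 0.867 to 0.949 between the groups. Each set was one slide with the groups always at the same position, so position on the slide and group cannot be told apart.

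The daf-2 transcript itself gave no check of the labels, since e1370 is a point mutation that leaves the gene in place. Its signal was -0.31, -0.76 and 0.06 in daf-2 worms, against -0.81, -0.70 and 0.07 in N2 worms. The groups overlapped, with a difference of 0.14 ± 0.51 (SE, n = 3 each, adjusted p = 0.85, limma), and 5 other daf-2 probes gave -0.08 to 0.11. The target genes below are the available check: sod-3 and mtl-1, long used as DAF-16 reporters, lay above all 9 N2 arrays of the series on every daf-2 array.

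Of 13486 genes tested, 2946 (21.8%) passed an adjusted p under 0.05. Of these, 1947 (14.4%) were higher and 999 (7.41%) were lower in daf-2. The rises were the larger changes: the median difference was 1.43 among higher genes and -0.86 among lower genes, and 267 genes rose at least 8-fold, against 19 that fell as far. Values of the 2 groups did not overlap for 2923 of the changed genes, although 5815 genes (43.1%) had groups that did not overlap. The count rests partly on single libraries: it was 1609 without the N2 array of set A, 1725 without the N2 array of set B and 1956 without the daf-2 array of set B. All 6 fits that left out an array kept 1146 higher and 353 lower genes. With the replicate set as a block the count was 5025 (2690 higher and 2335 lower), and 2945 of the 2946 genes were among them. The median of all genes was -0.14, and -0.38 when arrays were centred on their medians, so small shifts are read against that value. Counts within the gene lists below are read against the shares of all genes, 14.4% higher and 7.41% lower.

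**Figure D1:**
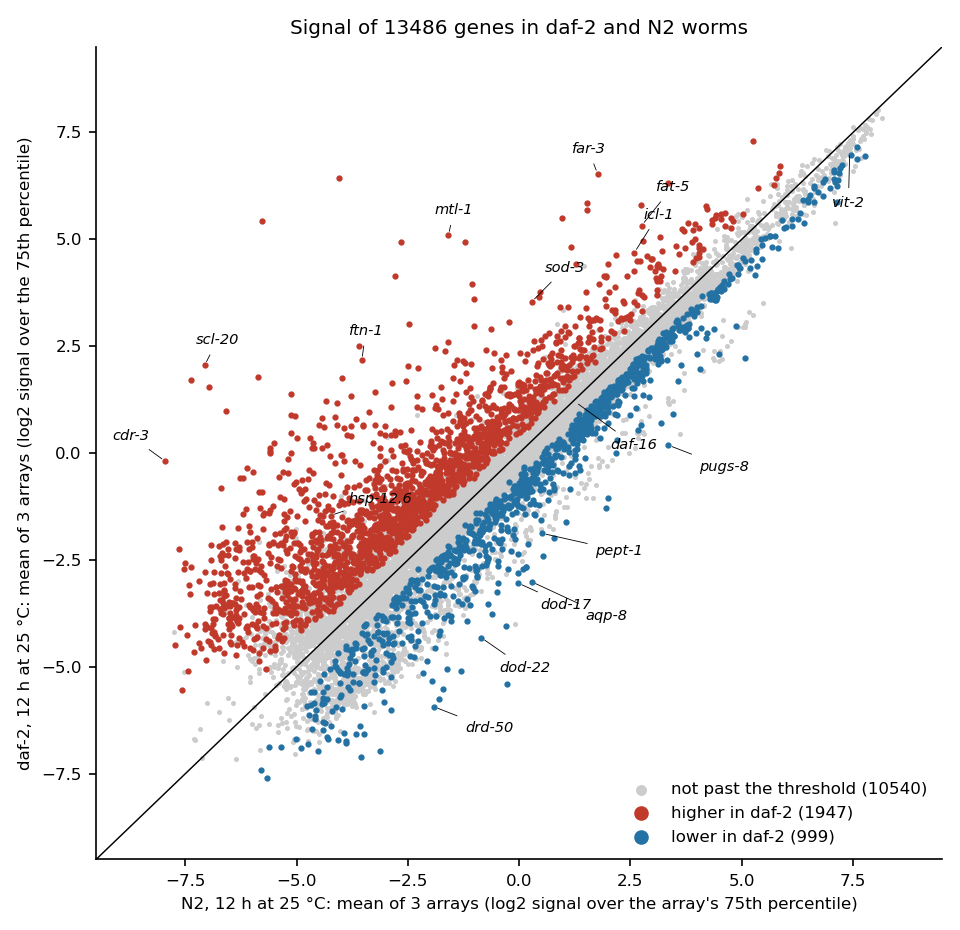
Mean relative log2 signal of each of 13486 genes over 3 daf-2 arrays (vertical) and 3 N2 arrays (horizontal) after 12 h at 25 °C; red points passed the test as higher in daf-2 (1947), blue as lower (999), grey did not pass, and the line marks equal signal. Rises such as scl-20, cdr-3 and mtl-1 lie much farther from the line than any labelled fall.

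The rises were mostly outside the range of wild type at any temperature measured. Of the 1947 higher genes, 1716 (88.1%) were above all 9 N2 arrays in every daf-2 array, and 781 of the 999 lower genes (78.2%) were below all 9. Across all genes tested, 2261 were above and 1627 below all 9 N2 arrays. Taking any probe of the gene on each array, 15, 327 and 128 higher genes were well above background on 0, 1 and 2 of the 3 N2 arrays. In the same way, 3, 72 and 44 lower genes were so on 0, 1 and 2 of the 3 daf-2 arrays. The chosen probe of a gene can be above background on fewer arrays than this. A fold change of those genes depends on signals near background.

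The largest rises included genes with no symbol. D1086.9 and H39E23.3, 2 genes without a symbol that were named after their values were seen, had differences of 11.22 and 10.49, with 2 and 3 of 3 N2 arrays above background. Among genes with a symbol the largest was scl-20, of the SCP family of secreted proteins, at 2.32, 2.25 and 1.58 in daf-2 worms, against -7.22, -7.57 and -6.42 in N2 worms. The difference was 9.12 ± 0.46 (adjusted p = 5.2e-06), but scl-20 was well above background on 1 of 3 N2 arrays. icmt-1, named for isoprenylcysteine carboxylmethyltransferase, had 4.53, 4.34 and 3.55 in daf-2 worms, against -3.18, -1.59 and -3.60 in N2 worms. Its probe was well above background on every array, and the difference was 6.93 ± 1.25 (adjusted p = 0.0034). The carboxylesterase gene cest-1.1 was 0.91, 1.02 and 0.53 in daf-2 worms, against -4.16, -4.69 and -4.47 in N2 worms. Its groups lay far apart with little spread, a difference of 5.26 ± 0.26 (adjusted p = 4.9e-06). The aldehyde dehydrogenase gene alh-2 rose by 5.89 and dsl-6, of the Delta/Serrate/LAG-2 ligand family, by 5.91, each above background on 1 of 3 N2 arrays.

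The core of the pathway changed little at the transcript level. Of 21 measured genes from the receptor to DAF-16 and its partners, 2 were higher and none was lower (4 and 1 with the replicate block), with a median difference of -0.14, equal to that of all genes. akt-2, one of the kinases that restrain DAF-16, was 0.63, 0.71 and 0.46 in daf-2 worms, against -0.81, -0.64 and -0.64 in N2 worms. The groups did not overlap, and the difference was 1.30 ± 0.14 (adjusted p = 0.00027). ist-1, an insulin receptor substrate homolog, differed by 0.81 ± 0.18 (adjusted p = 0.0091). daf-16 itself had 1.22, 1.34 and 1.05 in daf-2 worms, against 1.37, 1.22 and 1.17 in N2 worms, and did not pass (adjusted p = 0.77). Neither did age-1, the phosphoinositide 3-kinase catalytic subunit (-0.47, adjusted p = 0.18), nor pdk-1 (0.45, 0.18), akt-1 (0.09, 0.72) and sgk-1 (-0.27, 0.30). pqm-1, a factor known to act opposite DAF-16, missed the threshold at 0.57 (adjusted p = 0.051) and passed with the replicate block (adjusted p = 0.0056).

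A larger share of the ligand genes than of the receptor pathway genes passed the test. Of 30 measured insulin-like peptide genes, 13 were higher and 1 was lower, with a median of 0.73 (median of all genes -0.14). The ligand genes were dimmer, with list means of -3.2, -2.9 and -2.8 on the N2 12 h arrays. The receptor pathway list had 1.2, 1.3 and 1.2. Of all genes in the group of lowest mean signal, 24.5% were higher. The 43.3% of ligand genes lay above that share, but the part of signal level in the contrast was not tested. The worm genome holds a large family of these peptides, some agonists of DAF-2 and others antagonists. ins-10 was -0.34, -0.60 and -0.95 in daf-2 worms, against -5.42, -4.78 and -4.48 in N2 worms, a difference of 4.26 ± 0.28 (adjusted p = 1.4e-05) with 2 of 3 N2 arrays above background. ins-35 was 0.55, 0.13 and -0.35 in daf-2 worms, against -3.37, -3.40 and -2.64 in N2 worms. Neither gene's groups came near each other. ins-2 (4.23, above background on 1 of 3 N2 arrays), ins-12 (2.61) and ins-23 (2.55) rose as well, and ins-6, an agonist that acts in the exit from dauer, rose by 0.77 (adjusted p = 0.025). The member that fell was ins-7, an agonist that DAF-16 is known to repress in the intestine. It had -2.83, -2.42 and -2.18 in daf-2 worms, against -1.47, -1.29 and 0.65 in N2 worms, with the N2 array of set 1 far above the other two. Its call (-1.77, adjusted p = 0.049) was kept in only 1 of the 6 fits that left out an array, the one without the N2 array of set A, and the value lay within the range of the 9 N2 arrays. daf-28, another agonist, did not pass (-0.41, adjusted p = 0.41).

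Most genes with a record of being raised in daf-2 mutants were higher. Of 31 measured, 21 were higher and none was lower (2 lower with the block), 10 did not pass, and the median was 2.30. The list was compiled from knowledge of daf-2 mutants, so its direction is a check of the material and no separate evidence. sod-3, the mitochondrial manganese superoxide dismutase, was 3.78, 3.63 and 3.2 in daf-2 worms, against -0.03, 0.16 and 0.72 in N2 worms. The difference was 3.26 ± 0.24 (adjusted p = 3.5e-05), near 9.56-fold. mtl-1, a metallothionein, was 5.28, 5.16 and 4.83 in daf-2 worms, against -2.39, -2.53 and 0.14 in N2 worms. Here the N2 array of set 1 stood above the other N2 arrays, and the difference was 6.69 ± 0.88 (adjusted p = 0.00064). dod-3, a gene found downstream of DAF-16, was 2.39, 2.63 and 2.11 in daf-2 worms, against -2.52, -1.92 and -0.53 in N2 worms (4.03 ± 0.46, adjusted p = 0.00032).

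Others of that list rose by similar steps. nnt-1, nicotinamide nucleotide transhydrogenase, differed by 4.78 with 1 of 3 N2 arrays above background, and the linker histone hil-1 by 3.22. lea-1, a late embryogenesis abundant protein tied to desiccation tolerance, differed by 2.05, and tts-1, a long noncoding RNA that binds ribosomes in daf-2 worms, by 4.33. Members that did not pass included sod-5 (0.78, adjusted p = 0.45), mdl-1 (0.50, 0.31), old-1 (-0.91, 0.056) and aqp-1 (-0.01, 0.99). sodh-1, an alcohol dehydrogenase listed here as adh-1, was 2.1, 1.90 and 2.71 in daf-2 worms, against 0.01, -0.23 and 1.97 in N2 worms. The set 1 N2 array overlapped the daf-2 arrays, and its difference of 1.65 did not pass (adjusted p = 0.063, 0.018 with the replicate block).

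**Figure D2:**
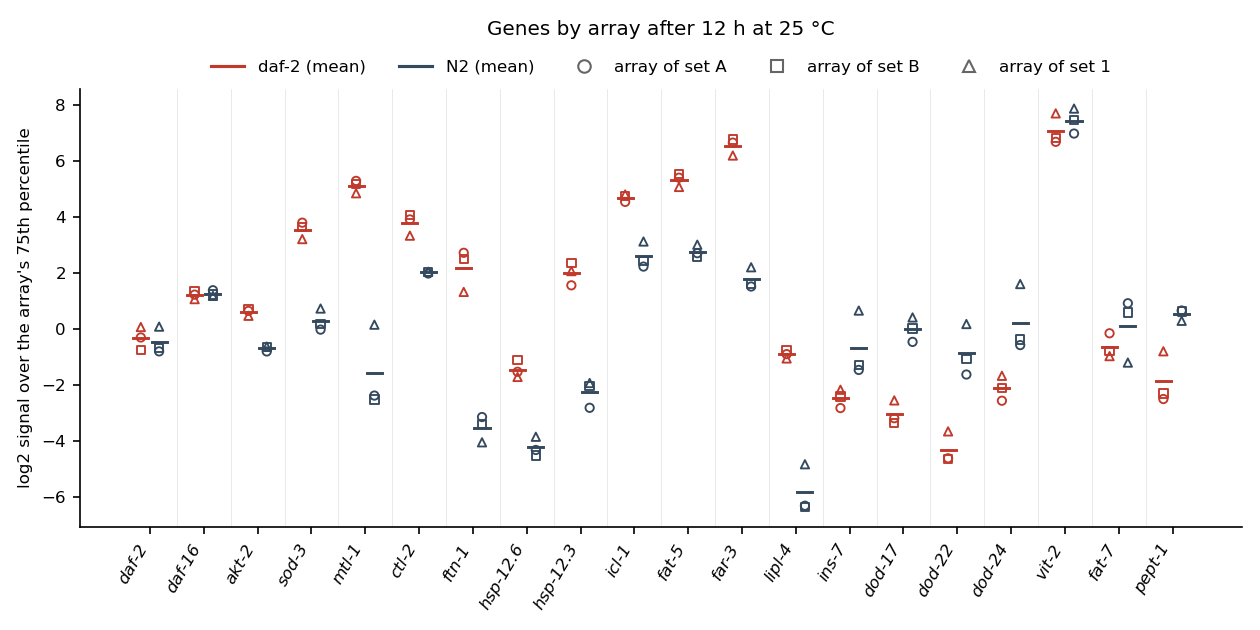
Relative log2 signal (vertical) of 20 genes on each daf-2 array (red, left of each pair) and N2 array (dark, right) after 12 h at 25 °C; symbols mark the replicate set and bars the mean of 3 arrays. daf-2, daf-16, vit-2 and fat-7 overlap between the groups, while sod-3, mtl-1, ftn-1, far-3 and lipl-4 stay apart on every array.

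Some antioxidant enzymes were higher. Of 21 measured, 5 were higher and 1 was lower (8 higher without the set 1 array of either group, and 9 higher and 2 lower with the replicate block). The catalases ctl-1, ctl-2 and ctl-3 differed by 1.52, 1.75 and 1.45, but the 3 genes are near-identical neighbours on chromosome II and their probes may share transcripts. ctl-2 had 3.90, 4.06 and 3.32 in daf-2 worms, against 1.97, 2.03 and 2.03 in N2 worms. trx-1, a thioredoxin, rose by 2.70 with 1 of 3 N2 arrays above background. The cytosolic dismutase sod-1 (0.42, adjusted p = 0.20), the mitochondrial sod-2 (0.03, 0.94) and the extracellular sod-4 (0.45, 0.092) did not pass. The member that fell was msra-1, methionine sulfoxide reductase A, which repairs oxidised protein. It had 2.51, 2.56 and 1.87 in daf-2 worms, against 4.79, 4.74 and 3.94 in N2 worms, and lay below all 9 N2 arrays (-2.18 ± 0.45, adjusted p = 0.0070).

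Metal-handling genes split, with 6 of 24 higher and 6 lower (3 lower without the N2 array of set A). Each direction was 25% of the list, against 14.4% higher and 7.41% lower over all genes. ftn-1, the iron-storage ferritin of the intestine, was 2.71, 2.49 and 1.31 in daf-2 worms, against -3.16, -3.39 and -4.06 in N2 worms. Every array of each group kept to its side, with a difference of 5.70 ± 0.36 (adjusted p = 1.3e-05), while the second ferritin ftn-2 did not pass (0.35, adjusted p = 0.29, with its 5 other probes at -0.58 to -0.03). Likewise mtl-2 did not pass (-0.19, adjusted p = 0.71) beside the large rise of mtl-1. In the cadmium-responsive family, cdr-3 was -0.07, 0.44 and -0.95 in daf-2 worms, against -6.91, -7.28 and -9.68 in N2 worms. No N2 array had cdr-3 well above background, so the change is given as at least 54.4-fold (adjusted p = 0.00055): daf-2 signal over the lowest signal well above background on each N2 array, or the probe's own where that was higher, the bound used for all such genes. cdr-2 was also higher than in N2 worms at 12 h (2.1). Its daf-2 mean of 2.42 lay within the range of the 9 N2 arrays, with N2 means of 2.35 after 3 h at 25 °C and 1.96 at 15 °C. cdr-1 fell by 2.07 with 1 of 3 daf-2 arrays above background, and the heme transport genes hrg-3 and hrg-4 fell by 1.67 and 1.26.

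Small heat shock genes were higher where they changed. Of 14 small heat shock protein genes, 5 were higher and none was lower (1 lower with the block), with a median of 0.37. hsp-12.6, a known DAF-16 target, was -1.54, -1.12 and -1.72 in daf-2 worms, against -4.33, -4.53 and -3.86 in N2 worms (2.78 ± 0.23, adjusted p = 5.9e-05). hsp-12.3 was 1.55, 2.34 and 2.05 in daf-2 worms, against -2.83, -2.06 and -1.94 in N2 worms (4.26 ± 0.34, adjusted p = 5.0e-05), and 5 other probes of it gave 4.17 to 4.39. hsp-16.21 (4.29) and hsp-16.20 (1.74) also rose, each above background on 1 of 3 N2 arrays. For hsp-16.20 the daf-2 values of sets B and 1 lay within the range of the 9 N2 arrays. The heat-inducible hsp-16 genes of the main cluster did not pass: hsp-16.1 at -0.68 (adjusted p = 0.088), hsp-16.41 at 0.44 (0.54, with 2.09 by its other probe) and hsp-16.48 at -0.16 (0.81). hsp-16.2 was 0.35, 0.73 and 1.57 in daf-2 worms, against -1.87, -1.83 and -0.54 in N2 worms. Its groups did not overlap, yet the difference of 2.30 missed the threshold (adjusted p = 0.072, 0.034 with the replicate block). N2 worms after 3 h at 25 °C averaged 2.72, above both. The hsp-16 genes are near copies of each other, so probes may read more than one.

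Constitutive chaperones were lower where they changed. Among 20 genes for Hsp70, Hsp90, their cochaperones and the CCT chaperonin, 6 were lower and 1 was higher, with a median of -0.49. hsp-1, the constitutive cytosolic Hsp70, was 6.19, 6.04 and 6.10 in daf-2 worms, against 6.80, 6.89 and 6.47 in N2 worms (-0.61 ± 0.14, adjusted p = 0.013). hsp-90 (-0.46), hsp-110 (-0.72) and cct-6 (-0.68), which serve folding of new and damaged proteins, fell as well. The number of lower genes was 0 without the N2 array of set A or of set B, 2 without any 1 of the daf-2 arrays, 10 without the N2 array of set 1 and 14 with the replicate block. The exception was hsp-70, an inducible Hsp70, with -0.08, 0.53 and 0.78 in daf-2 worms, against -2.70, -3.40 and -2.26 in N2 worms (3.2 ± 0.71, adjusted p = 0.010). It averaged 0.77 in N2 worms after 3 h at 25 °C, so the daf-2 values lay within the range of the 9 N2 arrays. In the endoplasmic reticulum, 2 of 18 unfolded protein response genes fell (11.1%) and 1 rose (5.56%), against 7.41% and 14.4% of all genes. The median of the list was 0.035. The falls were hsp-4 (BiP) by 0.69 and ckb-2, a choline kinase, by 1.38 (its other probe gave 0.10). The rise was dnj-27 (0.52, adjusted p = 0.040), whose call was lost without any 1 array other than the N2 array of set 1. Of 12 mitochondrial unfolded protein response genes 1 rose, the homeobox factor dve-1 (1.23 ± 0.17, adjusted p = 0.00075), which works in that response.

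Fat synthesis genes were higher where they changed. Of 22 measured, 6 were higher and none was lower, with a median of 0.43. The count was 3 without any 1 array other than the daf-2 array of set 1 and 10 with the replicate block. fat-5, the delta-9 desaturase that acts on palmitate, was 5.39, 5.52 and 5.06 in daf-2 worms, against 2.70, 2.56 and 3.00 in N2 worms. The groups stood far apart (2.57 ± 0.30, adjusted p = 0.00038), and 3 other probes gave 2.52 to 2.72. fat-6, which makes oleate, was 5.06, 5.17 and 4.80 in daf-2 worms, against 3.98, 3.90 and 3.95 in N2 worms (1.07 ± 0.15, adjusted p = 0.00080). N2 worms averaged 4.82 after 3 h at 25 °C, and 1 of the 3 daf-2 arrays lay within the range of the 9 N2 arrays, with the others above it. The third delta-9 desaturase, fat-7, was -0.16, -0.81 and -0.98 in daf-2 worms, against 0.91, 0.58 and -1.21 in N2 worms, and did not pass (-0.74, adjusted p = 0.53). fat-2 (0.66), fatty acid synthase fasn-1 (0.57), the SREBP factor sbp-1 (0.56) and the elongation dehydratase hpo-8 (0.59) made up the rest, and the call of fasn-1 was lost in each of the 6 fits that left out an array. fat-1, fat-3 and fat-4, desaturases on the path to polyunsaturated fats, gave -0.10, 0.04 and 0.26 and did not pass.

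Of 40 lipid breakdown genes 7 were higher (17.5%) and 2 lower (5.0%), close to the 14.4% and 7.41% of all genes (12 higher without the daf-2 array of set 1, 12 and 4 with the replicate block). lipl-4, the lysosomal lipase linked to long life, was -0.91, -0.76 and -1.06 in daf-2 worms, against -6.32, -6.36 and -4.84 in N2 worms (4.93 ± 0.43, adjusted p = 8.1e-05). 1 of the 3 N2 arrays had it above background. The lipases lipl-2 (2.06) and lipl-1 (1.61, groups overlapping) and the carnitine palmitoyltransferases cpt-3 (3.53) and cpt-4 (3.01), which bring fatty acids into mitochondria, rose as well. acox-1.2, a peroxisomal acyl-CoA oxidase, fell by 1.87 with 1 of 3 daf-2 arrays above background, and the acyl-CoA dehydrogenase gene acdh-9 by 1.58. The fat lipase atgl-1 (-0.04, adjusted p = 0.89) and acs-2 (1.52, 0.13) did not pass. Of 17 lipid binding genes 5 were higher and none was lower (2 lower with the block). far-3, a secreted fatty acid and retinol binding protein, was 6.64, 6.75 and 6.18 in daf-2 worms, against 1.5, 1.59 and 2.19 in N2 worms (4.76 ± 0.27, adjusted p = 1.1e-05). lbp-8, a carrier known to work with LIPL-4, rose by 1.83.

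Of 18 genes of trehalose, glycerol and glyoxylate metabolism, 5 were higher and none was lower (1 lower with the block), and 13 did not pass. icl-1, the joined isocitrate lyase and malate synthase that lets worms make sugar from fat, was 4.53, 4.73 and 4.79 in daf-2 worms, against 2.22, 2.42 and 3.11 in N2 worms (2.1 ± 0.29, adjusted p = 0.00085). The trehalose-6-phosphate synthases tps-1 (1.39) and tps-2 (1.37), the trehalase tre-4 (1.75) and pck-1 (0.82), which opens gluconeogenesis, followed. Of 34 glycolysis and citric acid cycle genes, 2 were higher and 3 lower (9 lower with the replicate block). These shares were 5.88% and 8.82%, against 14.4% and 7.41% of all genes. pyk-2, pyruvate kinase, rose by 0.85, and hxk-1, hexokinase, fell by 0.64. The 3 falls were lost without the N2 array of set A or of set B or the daf-2 array of set 1, and 1 was left without the daf-2 array of set A. The number higher was 1 without any 1 of the sets A and B arrays and 3 without the daf-2 array of set 1. Of 9 AMP-activated kinase subunits 2 rose, aakg-4 (1.84) and aakb-1 (0.90).

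Changes of yolk genes were small in size. Of 6 measured genes for vitellogenins and their receptor, 2 were lower (33.3%, against 7.41% of all genes) and 4 did not pass. The 2 were vit-1 (-0.88 ± 0.22, adjusted p = 0.017), whose call was lost without the N2 array of set A, and the receptor gene rme-2 (-0.81 ± 0.18, adjusted p = 0.011). vit-2 was 6.67, 6.81 and 7.69 in daf-2 worms, against 6.97, 7.46 and 7.86 in N2 worms, with overlapping groups (-0.37, adjusted p = 0.49). vit-4, vit-5 and vit-6 gave -0.06, -0.10 and 0.12. Several vitellogenin genes are near copies, so probes may share transcripts.

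Genes with a record of being lowered in daf-2 mutants fell in part. Of 13 measured, 6 were lower and none was higher, with a median of -0.88. dod-17 was -3.20, -3.37 and -2.56 in daf-2 worms, against -0.47, 0.00 and 0.40 in N2 worms (-3.02 ± 0.31, adjusted p = 0.00020). dod-22 was -4.63, -4.66 and -3.67 in daf-2 worms, against -1.64, -1.09 and 0.17 in N2 worms (-3.47 ± 0.63, adjusted p = 0.0034). Both genes, also known as infection-responsive genes of the intestine, lay below all 9 N2 arrays. dod-24, another dod gene, was -2.57, -2.12 and -1.68 in daf-2 worms, against -0.59, -0.38 and 1.59 in N2 worms (-2.33, adjusted p = 0.026, kept in 3 of 6 fits without one array). dod-23 fell by 1.3, while dod-18 (-0.00, adjusted p = 0.99) and dod-19 (-1.01, 0.056) did not pass.

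**Figure D3:**
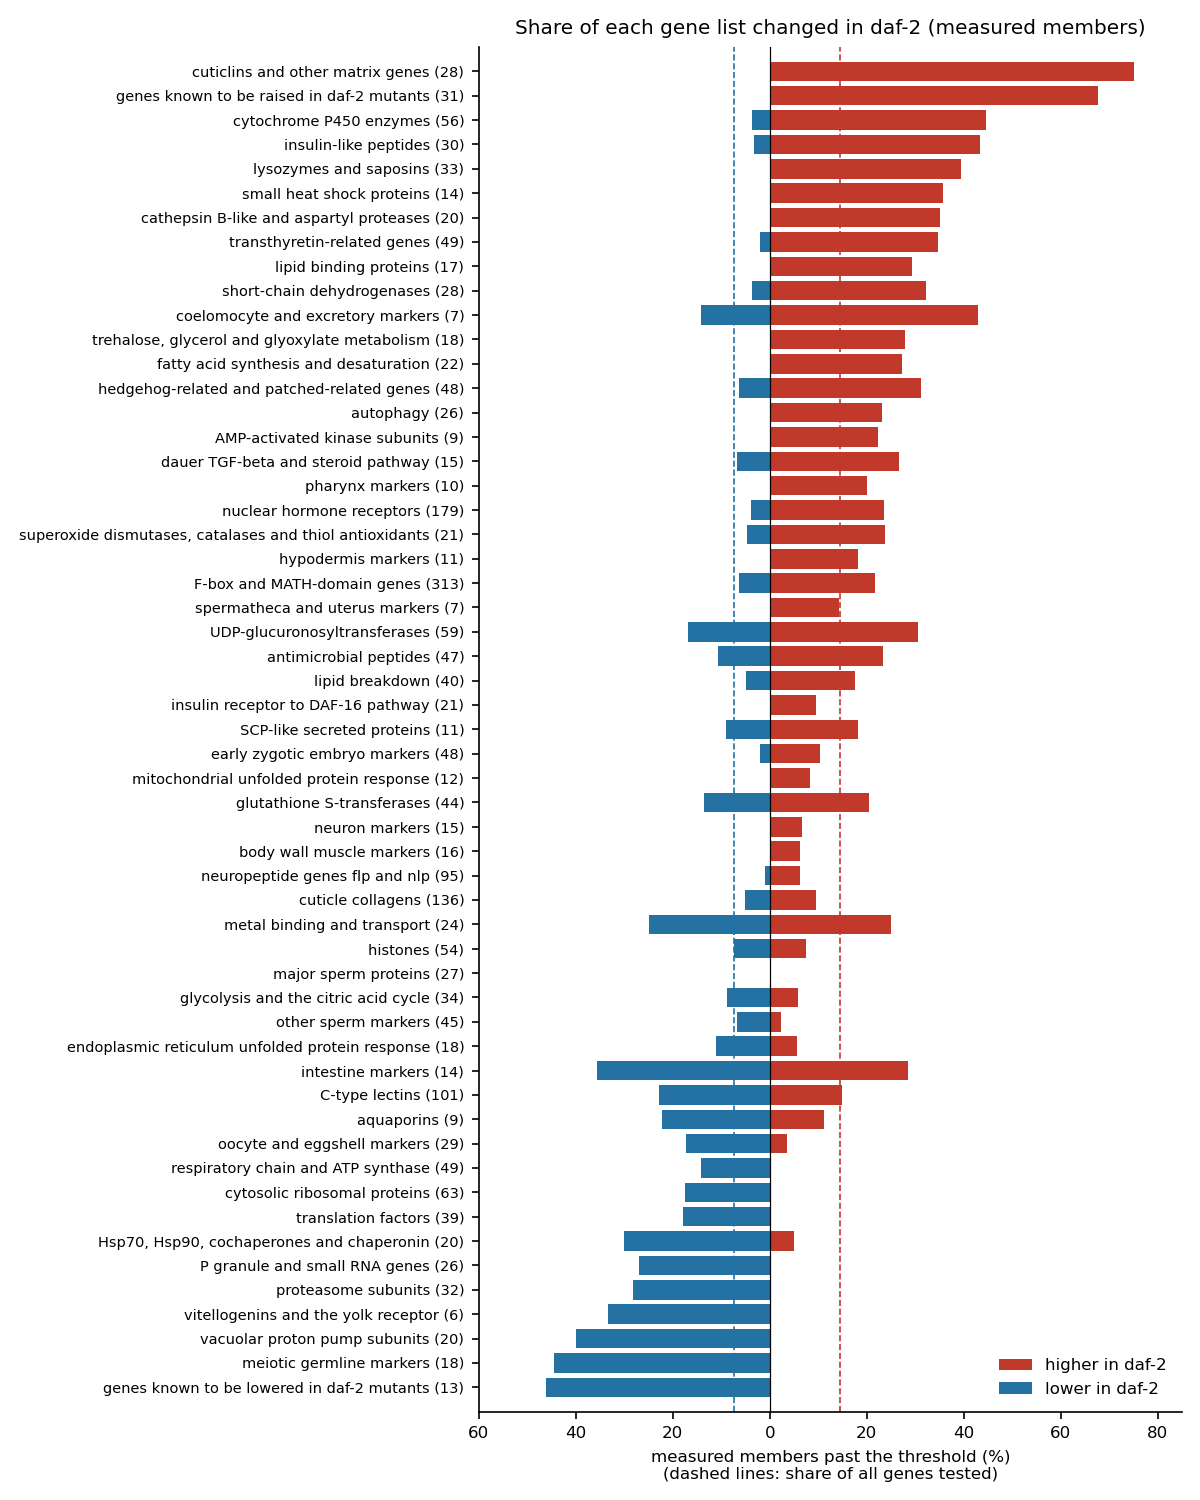
Percent of the measured members of each of 55 gene lists that were higher (red, to the right) or lower (blue, to the left) in daf-2 at an adjusted p under 0.05; the number measured is in brackets, and the dashed lines mark the shares of all genes, 14.4% higher and 7.41% lower. Matrix genes and the genes known to be raised reach 75% and 67.7% higher, and 46.2% of the genes known to be lowered were lower.

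The largest falls came from mixed families. drd-50 was -6.61, -5.64 and -5.56 in daf-2 worms, against -2.24, -2.49 and -1.02 in N2 worms (-4.02 ± 0.49, adjusted p = 0.00045), with 1 of 3 daf-2 arrays above background. N2 worms at 15 °C averaged -4.97 for this gene, and 1 of the 3 daf-2 arrays lay within the range of the 9 N2 arrays, with the others below it. pugs-8 was 0.86, -0.04 and -0.27 in daf-2 worms, against 3.04, 3.39 and 3.63 in N2 worms (-3.17 ± 0.31, adjusted p = 0.00015), below every N2 array. The F-box gene fbxa-72 fell by 3.74 and herc-1, a HERC-type ubiquitin ligase gene, by 3.43, with herc-1 above background on 1 of 3 daf-2 arrays. col-43, a cuticle collagen, was -1.05, -1.29 and -0.83 in daf-2 worms, against 2.01, 2.13 and 1.82 in N2 worms (-3.04 ± 0.51, adjusted p = 0.0023). sri-40, of a chemoreceptor family, fell by 2.95, cln-3.1, a homolog of the human Batten disease gene, by 2.80 and haao-1, which breaks down tryptophan through the kynurenine route, by 2.76.

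aqp-8, the water channel of the excretory cell, was -2.63, -3.11 and -3.30 in daf-2 worms, against 0.26, 0.23 and 0.36 in N2 worms (-3.30 ± 0.29, adjusted p = 8.7e-05). The other aquaporins went both ways: aqp-2 rose by 2.42 and aqp-7 fell by 1.58, so 1 of 9 was higher and 2 lower (2 and 4 with the replicate block). Among 7 coelomocyte and excretory markers 3 rose, including exc-5 (1.01), needed for the shape of the excretory canal, and cup-4 (0.71), of the coelomocytes. The third was sulp-5 (0.80, fitted without the N2 array of set 1, whose spot was uneven), and aqp-8 was the 1 that fell.

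Most genes of translation and respiration did not pass the test, and those that did were lower. Of 63 cytosolic ribosomal protein genes, 11 were lower and none was higher, with a median of -0.37. rpl-12 was 6.70, 6.89 and 7.27 in daf-2 worms, against 7.59, 7.99 and 7.73 in N2 worms (-0.81 ± 0.17, adjusted p = 0.0083). Under quantile normalization the median of the ribosomal list was -0.08, no lower than the -0.11 of all genes under that scaling, so a shift relative to other genes is not stable. The number lower was 2 without the N2 array of set B, 3 without that of set A, 5 to 7 without any 1 daf-2 array and 26 with the replicate block. Translation factors, with 7 of 39 lower, gave 1 without the N2 array of set A or of set B, 3 without any 1 daf-2 array, 11 without the N2 array of set 1 and 20 lower and 2 higher with the block. ife-1, a germline cap-binding factor, fell by 0.98 and the elongation factor subunit eef-1B.2 by 0.62.

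Proteasome and proton pump genes had medians below that of all genes under each of the 4 other scalings tried. The 32 proteasome subunits had a median of -0.56, with 9 lower and none higher, and a quantile-normalized median of -0.42. pbs-4, a core particle subunit, was 3.62, 3.93 and 3.48 in daf-2 worms, against 4.43, 4.41 and 4.2 in N2 worms (-0.67 ± 0.18, adjusted p = 0.027). The number lower was 0 and 1 without the N2 arrays of sets A and B, 4 without the daf-2 array of set A or B, 2 without that of set 1, 19 without the N2 array of set 1 and 26 with the block. Of 20 vacuolar proton pump subunits, which acidify lysosomes and the gut lumen, 8 were lower, with a median of -0.58. vha-6, the intestinal a subunit, was 3.19, 2.30 and 2.97 in daf-2 worms, against 4.15, 4.41 and 4.12 in N2 worms (-1.41 ± 0.27, adjusted p = 0.0046). Here 3 and 4 genes were lower without the N2 arrays of sets B and A, 5 without the daf-2 array of set 1 and 15 with the block. Respiratory chain and ATP synthase genes, with 7 of 49 lower and a median of -0.38, gave 0 without the N2 array of set A or of set B, 3 without the daf-2 array of set 1 and 25 with the block. atp-2, the beta subunit of ATP synthase, fell by 0.64.

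Autophagy genes were higher where they changed, with 6 of 26 higher and none lower (1 lower with the block or without the daf-2 array of set A). sqst-1, the p62 cargo receptor, was 3.09, 3.42 and 3.06 in daf-2 worms, against 1.27, 1.31 and 1.51 in N2 worms (1.83 ± 0.16, adjusted p = 8.7e-05). atg-2, a lipid transfer protein of the growing autophagosome, rose by 1.53, and hlh-30, the worm TFEB that governs autophagy and lysosome genes, by 0.60. unc-51, the initiating kinase, rose by 0.51, while bec-1 and lgg-1 gave 0.02 and 0.59 and did not pass. The count was 2 without the daf-2 array of set B and 3 without the N2 array of set A or of set B.

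Detoxification families held many changed genes. Of 56 cytochrome P450 genes 25 were higher (44.6%) and 2 lower, with a median of 0.70. The list was dim, with means of -2.7, -2.7 and -2.2 on the N2 12 h arrays. Of all genes in the group of lowest mean signal, 24.5% were higher. The part of signal level in the P450 share was not tested. cyp-34A9, long listed as a gene downstream of DAF-16, was -0.31, 0.39 and 0.16 in daf-2 worms, against -2.68, -3.34 and -2.59 in N2 worms (2.95 ± 0.26, adjusted p = 8.7e-05). cyp-35B1 (4.2), cyp-14A4 (4.26) and cyp-13B1 (3.80) rose from signals above background on 1 of 3 N2 arrays, and cyp-13A2 fell by 2.68. The number higher was 14 without the N2 array of set B and 16 without the N2 array of set A or the daf-2 array of set B, and the number lower was 1 without any 1 array other than the daf-2 array of set A. UDP-glucuronosyltransferases went both ways, with 18 of 59 higher and 10 lower. ugt-41 was 1.75, 2.19 and 1.85 in daf-2 worms, against -0.35, -0.17 and -0.02 in N2 worms, and ugt-64 fell by 1.98. Without the N2 array of set A 2 were lower, without the daf-2 array of set B 4, and without the daf-2 array of set 1 or the N2 array of set B 5.

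Glutathione S-transferases gave 9 of 44 higher and 6 lower (16 and 13 with the block, 3 lower without the daf-2 array of set B). gst-29 was 1.87, 2.13 and 1.64 in daf-2 worms, against -1.74, -1.40 and -0.45 in N2 worms, while gst-38 fell by 1.73. Of 28 short-chain dehydrogenases 9 were higher and 1 lower (0 lower without the set B array of either group or the N2 array of set 1). dhs-20 was 1.82, 1.77 and 1.06 in daf-2 worms, against -0.36, -0.44 and -0.23 in N2 worms (1.89 ± 0.35, adjusted p = 0.0041).

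Defence genes rose in some families and fell in others. Of 33 lysozyme and saposin-like genes 13 were higher and none was lower (1 lower with the block), with a median of 0.55. lys-7, a lysozyme known to be regulated by DAF-16, was 4.27, 4.54 and 5.10 in daf-2 worms, against 1.67, 1.32 and 3.52 in N2 worms (2.46 ± 0.74, adjusted p = 0.040). Its call was lost in 5 of the 6 fits that left out an array. spp-1, a caenopore, was 4.92, 4.92 and 3.77 in daf-2 worms, against 3.07, 2.83 and 2.99 in N2 worms (1.57 ± 0.30, adjusted p = 0.0045). spp-20 (5.65), spp-13 (4.35) and spp-12 (4.30) rose more, from signals that were above background on 1, 2 and 1 of 3 N2 arrays. The number higher was 7 without the N2 array of set A and 8 without the daf-2 array of set A or B.

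Antimicrobial peptides gave 11 of 47 higher and 5 lower, with a median of -0.25. The thaumatin-like thn-2 was 5.61, 6.30 and 5.50 in daf-2 worms, against 2.29, 2.37 and 3.58 in N2 worms (3.06 ± 0.36, adjusted p = 0.00036). fipr-26 was 0.45, 0.73 and 0.74 in daf-2 worms, against -3.90, -3.80 and -3.65 in N2 worms (4.42 ± 0.19, adjusted p = 1.3e-06). fipr-5, of the same family, fell by 2.81 (kept in 2 of 6 fits without one array), and nlp-29, a peptide of the epidermal response to fungi and wounds, did not pass (-0.16, adjusted p = 0.74). Without the N2 array of set A 6 were higher and 2 lower, without the daf-2 array of set B 7 and 2, and without the daf-2 array of set A or the N2 array of set B 3 were lower. The replicate block gave 11 lower.

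C-type lectins changed in both directions, with 15 of 101 higher (14.9%, 23 genes with the block) and 23 lower (22.8%), and a median of -0.37. Over all genes 14.4% were higher and 7.41% lower, so the share of rises was near that of all genes. clec-4 was -3.37, -3.31 and -2.46 in daf-2 worms, against -1.12, -0.16 and -0.14 in N2 worms (-2.57 ± 0.45, adjusted p = 0.0028). clec-218, clec-245 and clec-10 fell by 2.46, 2.46 and 2.41. In the other direction clec-13 and clec-61 rose at least 9.45-fold and 13.1-fold, since no N2 array had either above background. Of 20 cathepsin B-like and aspartyl proteases, which digest food in the gut, 7 were higher and none was lower. cpr-1 was 3.16, 3.91 and 3.08 in daf-2 worms, against 1.36, 0.76 and 2.37 in N2 worms (1.88 ± 0.39, adjusted p = 0.0071). N2 worms averaged 3.79 at 15 °C and 3.47 after 3 h at 25 °C, so the daf-2 values of cpr-1 lay within the range of the 9 N2 arrays.

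Apical matrix genes showed the highest share of rises among the 55 lists. Of 28 cuticlin and related genes 21 were higher (75%) and none was lower, with a median of 2.11. The list was dim, with means of -3.9, -3.8 and -3.3 on the N2 12 h arrays. Of all genes in the group of lowest mean signal, 24.5% were higher. A gene dim in every N2 group was tested only where all 3 daf-2 arrays had it above background. The part of signal level and of this filter in the 75% was not tested. cut-3 was -1.95, 0.78 and 3.00 in daf-2 worms, against -4.76, -5.66 and -2.74 in N2 worms, a spread between daf-2 arrays as large as many differences (5.0 ± 1.19, adjusted p = 0.014). The daf-2 value of set A lay within the range of the 9 N2 arrays, and 2 of 3 N2 arrays had cut-3 above background. Its call was lost without the N2 array of set A or of set B. cutl-2 was steadier, at -0.13, 0.33 and 0.53 in daf-2 worms, against -3.98, -3.85 and -2.06 in N2 worms (3.54 ± 0.58, adjusted p = 0.0022). noah-1 and noah-2, matrix proteins needed in embryonic elongation and molting, rose by 2.98 and 2.84, and fbn-1, a fibrillin homolog, by 3.55 with 1 of 3 N2 arrays above background. The number of higher genes was 14 without the N2 array of set A.

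Cuticle collagens as a class did not follow. Of 136 measured, 13 were higher and 7 lower (12 lower with the block), with a median of -0.42. Within sets A, B and 1 the median difference of the class was -0.02, -0.99 and 0.22. The furrow collagen dpy-7 was -0.32 and 0.81 in daf-2 worms of sets A and B, with the set 1 spot dropped as uneven, against -5.96, -5.24 and -2.70 in N2 worms (4.87 ± 1.05, adjusted p = 0.011). It was above background on 1 of 3 N2 arrays and its call was lost without the daf-2 array of set B. col-50 was 1.34, 1.72 and 1.59 in daf-2 worms, against -7.28, -7.60 and -6.02 in N2 worms, a difference of 8.51 with 1 of 3 N2 arrays above background and 2.65 by its other probe. The adult collagen col-19 (-0.59, adjusted p = 0.094) and the body shape genes rol-6 (-1.03, 0.69) and dpy-5 (-1.55, 0.45) did not pass.

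Hedgehog-related and patched-related genes, which act in the epidermis and at molts, gave 15 of 48 higher and 3 lower. wrt-10 was 0.93, 1.47 and 1.64 in daf-2 worms, against -3.16, -2.78 and -0.97 in N2 worms (3.65 ± 0.62, adjusted p = 0.0024). The count lower was 0 without the daf-2 array of set B and 1 without the N2 array of set A. The next 2 genes were named after their values were seen: hch-1, the hatching protease, at 0.65, 1.66 and 1.71 in daf-2 worms, against -4.43, -4.66 and -2.27 in N2 worms, and mlt-11, a protease inhibitor needed for molting (4.67). Both lay above all 9 N2 arrays.

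Markers of embryos were examined beside these matrix genes, since whole adults carry embryos. Of 48 early zygotic embryo markers 5 were higher and 1 lower (9 and 3 with the block), with a median of 0.39. These shares, 10.4% and 2.08%, were below the 14.4% and 7.41% of all genes. The change was uneven: the median within sets A, B and 1 was 0.73, 0.65 and -0.34. The mean level of the list was -0.73, -0.94 and -1.35 in daf-2 worms, against -1.37, -1.51 and -1.04 in N2 worms. The number higher among embryo markers was 3 without any 1 of the sets A and B arrays of either group and 8 without the N2 array of set 1. The part of embryo RNA in the rise of matrix genes was not tested. In whole-animal RNA, more cells of a type and more RNA per cell cannot be told apart.

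**Figure D4:**
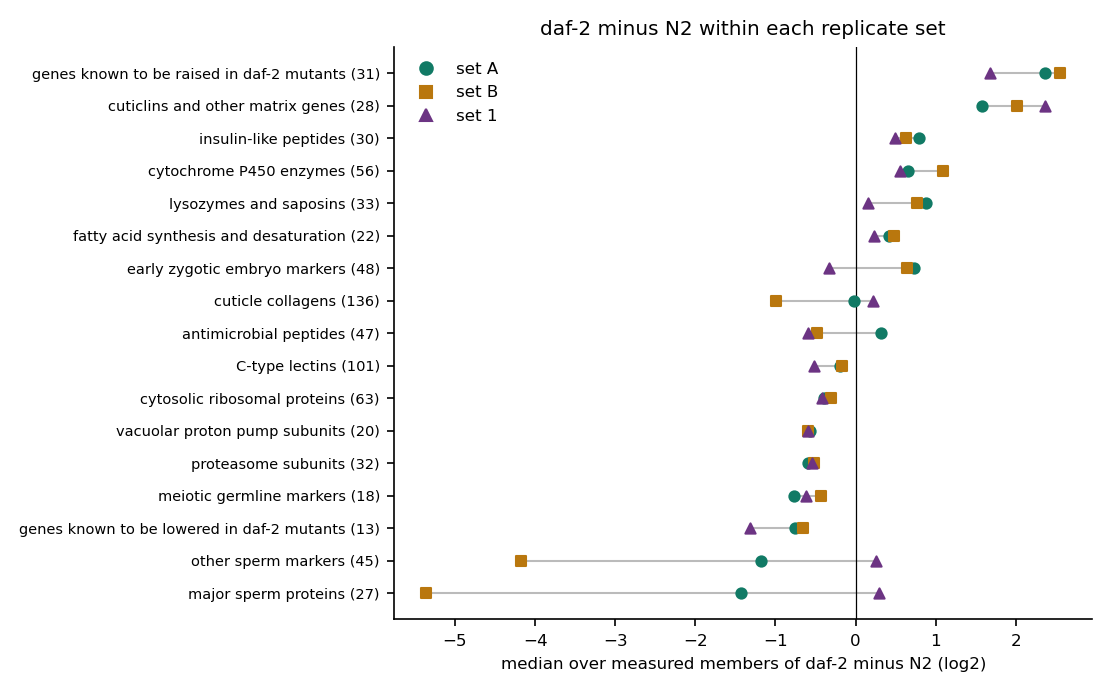
Median over the measured members (number in brackets) of the log2 difference, daf-2 minus N2, within set A (circle), set B (square) and set 1 (triangle) for 17 gene lists. Most lists keep their sign in all 3 sets, while the sperm lists run from -5.36 in set B to 0.29 in set 1.

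Most germline markers did not pass the test, but a larger share of the meiotic markers was lower than of all genes. Of 18 meiotic markers 8 were lower (44.4%, against 7.41% of all genes) and none was higher. The median was -0.61, and within the sets it was -0.76, -0.44 and -0.62. rec-8, the meiotic cohesin, was 0.79, 0.69 and 0.76 in daf-2 worms, against 1.57, 1.64 and 1.48 in N2 worms (-0.82 ± 0.15, adjusted p = 0.0031). gld-1, a translational repressor of the germline, was 2.27 and 3.15 in daf-2 worms of sets A and 1, with the set B spot dropped as uneven, against 3.77, 3.71 and 3.94 in N2 worms (-1.09, adjusted p = 0.045). The number lower was 1 without the N2 array of set A, 3 without the N2 array of set B or the daf-2 array of set A and 5 without the daf-2 array of set 1.

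Of 26 P granule and small RNA genes 7 were lower (11 with the block), including pgl-1, a P granule component, by 0.89, and hrde-1, a nuclear Argonaute, by 0.89. That count was 0 and 1 without the N2 arrays of sets A and B, 4 without the daf-2 array of set A or B and 3 without that of set 1. Of 29 oocyte and eggshell markers 5 were lower and 1 higher (9 lower with the block). The member that rose was cav-1, caveolin of the oocyte, at 5.18, 5.50 and 4.89 in daf-2 worms, against 3.45, 3.49 and 4.15 in N2 worms (1.49 ± 0.25, adjusted p = 0.0023). The 5 falls were 1 without the daf-2 array of set B or 1 or the N2 array of set A, 2 without the N2 array of set B and 3 without the daf-2 array of set A.

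Sperm transcripts differed between the sets. The 27 major sperm protein genes had a median of -2.17, and none passed the test. msp-3 was 1.99, -0.74 and 2.22 in daf-2 worms, against 3.56, 4.71 and 1.84 in N2 worms (-2.21, adjusted p = 0.27). In set B the daf-2 array was lowest of the 6 and the N2 array highest, and the median over the family was -1.43, -5.36 and 0.29 within sets A, B and 1. Of 45 other sperm markers 3 were lower and 1 higher (6 lower with the block), with set medians of -1.18, -4.18 and 0.25. The 3 falls were 0 without any 1 of the daf-2 array of set B and the N2 arrays of sets A and B, and 1 without the daf-2 array of set A or the N2 array of set 1. spe-21, known from sperm development, rose by 3.26 against the trend, above background on 1 of 3 N2 arrays.

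Of 179 nuclear hormone receptor genes 42 were higher (23.5%) and 7 lower (66 higher with the block), with a median of 0.33. Over all genes tested 14.4% were higher, and 24.5% and 20.2% in the lowest and the next of 4 equal groups by mean signal, so the share is near that of dim genes. nhr-44 was -1.93, -1.60 and -1.3 in daf-2 worms, against -4.04, -4.01 and -3.40 in N2 worms (2.21 ± 0.23, adjusted p = 0.00021). nhr-49, which controls fat use, did not pass (0.42, adjusted p = 0.12), nor did daf-12, the steroid receptor of the dauer decision (0.35, 0.22). The number higher was 22 and 24 without the N2 arrays of sets A and B, and the number lower was 2 or 3 without any 1 array. Of 313 F-box and MATH-domain genes, adaptors of ubiquitin ligases, 68 were higher (21.7%, likewise near dim genes) and 20 lower, and 108 and 34 with the block. The rises were 36 without the N2 array of set B and 42 without either array of set A, and the falls 13 without the daf-2 array of set B and 11 without the N2 array of set A. fbxc-7 (4.49) and fbxa-137 (4.28) rose from 1 of 3 N2 arrays above background.

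Neuropeptide genes mostly did not pass: of 95, 6 were higher and 1 lower (10 and 3 with the block, 11 higher without the N2 array of set 1), with a median of 0.12. The exceptions were large. nlp-39 was 0.44, 1.66 and 0.47 in daf-2 worms, against -5.18, -4.80 and -2.47 in N2 worms (5.0 ± 0.83, adjusted p = 0.0022), with 1 of 3 N2 arrays above background. nlp-26 was -1.35, -1.64 and -1.86 in daf-2 worms, against 0.94, 1.24 and 0.95 in N2 worms (-2.66 ± 0.41, adjusted p = 0.0015). In the dauer pathways 4 of 15 genes were higher and 1 lower. daf-6, of glial channels, rose by 1.67 with 2 of 3 N2 arrays above background, while daf-7, the TGF-beta ligand (0.08, adjusted p = 0.78), and daf-9, the hormone-making P450 (-0.13, 0.72), did not pass. The rises were 1 without the daf-2 array of set B or 1 or the N2 array of set B and 2 without the N2 array of set A, and the fall was kept only without the daf-2 array of set A.

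Linker histones made up most of the changes among 54 histone genes, of which 4 rose and 4 fell (8 fell with the block). Each direction was 7.41% of the list, against 14.4% higher and 7.41% lower over all genes. hil-7 was 2.09, 3.02 and 3.92 in daf-2 worms, against -3.50, -3.25 and -0.71 in N2 worms (5.49 ± 0.85, adjusted p = 0.0015). his-24 was 5.06, 5.24 and 4.87 in daf-2 worms, against 2.59, 2.92 and 4.0 in N2 worms (1.88 ± 0.43, adjusted p = 0.012, lost without the N2 array of set A). With hil-1 and hil-3, which differed by 3.22 and 1.48, all 4 that rose were linker histones, and so were hil-4, hil-5 and hil-6, which fell by 0.80, 0.66 and 0.67. The rises were 2 without the N2 array of set A and 7 without that of set 1, and the falls 1 without the N2 array of set A or of set B and 2 without the daf-2 array of set 1. Of 49 transthyretin-related genes, secreted proteins of nematodes, 17 were higher and 1 lower (5 lower with the block, 0 without any 1 of the sets A and B arrays), led by ttr-23 at 2.49, 2.32 and 2.99 in daf-2 worms, against -1.86, -2.58 and -0.38 in N2 worms.

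Intestinal markers changed in both directions. Of 14 markers 4 were higher and 5 lower. pept-1, the peptide transporter of the gut surface, was -2.51, -2.32 and -0.81 in daf-2 worms, against 0.65, 0.61 and 0.28 in N2 worms (-2.39 ± 0.45, adjusted p = 0.0040). nhx-2, the sodium-proton exchanger that works with it, fell by 1.68, act-5, the actin of the microvilli, by 1.17 and the filament gene ifb-2 by 1.47. The fifth that fell was vha-6. ges-1, a gut esterase, was 2.23, 2.39 and 2.37 in daf-2 worms, against -0.04, -0.23 and 0.34 in N2 worms (2.30 ± 0.19, adjusted p = 6.5e-05). The GATA factors elt-2 (0.62, adjusted p = 0.049) and elt-7 (0.74, 0.017) rose, and the call of elt-2 was lost in each of the 6 fits that left out an array. The other higher marker was cpr-1, with daf-2 values within the range of the 9 N2 arrays. The number higher was 2 without any 1 of the sets A and B arrays. Of 16 body wall muscle markers the selector hlh-1 was higher (1.60) and the others did not pass, with unc-54 at -0.26 and myo-3 at 0.54, and the median was -0.07. Of 10 pharynx, 11 hypodermis, 15 neuron and 7 spermatheca and uterus markers, 2, 2, 1 and 1 were higher and none was lower. These shares, 20%, 18.2%, 6.67% and 14.3%, lay on both sides of the 14.4% of all genes. The hypodermis count was 4 without the daf-2 array of set A and 1 without that of set B, the neuron count was 2 without the N2 array of set 1, and the spermatheca call held only without the daf-2 array of set A. SCP-like genes gave 2 of 11 higher, scl-20 and scl-12, and 1 lower. scl-12 was kept in 1 of the 6 fits that left out an array. The number higher was 1 without any 1 daf-2 array or the N2 array of set A, and the number lower was 2 without the daf-2 array of set A or the N2 array of set 1.

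The X chromosome held the largest share of rises. Higher genes made up 20.9% of 1837 genes tested on X and 18% of 2654 on V, against 10.4% of 2221 on I and 10.2% of 2100 on III. Lower genes ranged less, from 6.03% on I to 9.01% on V. The median difference was 0.17 on X and -0.24 on I. Rises were also commoner among dim genes: 24.5%, 20.2%, 8.99% and 4.03% of genes were higher in 4 equal groups from lowest to highest mean signal, and 5.16%, 7.36%, 8.01% and 9.10% were lower. A gene dim in every N2 group was tested only if all 3 daf-2 arrays had it above background. The filter thus admits such genes only where daf-2 is high. With probes required above background on all 12 arrays, 1371 genes were higher and 917 lower of 11168 tested. The part of this filter in the shares by signal was not tested. Nor was the part of signal level tested for the share on X or for the shares of the gene lists.

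**Figure D5:**
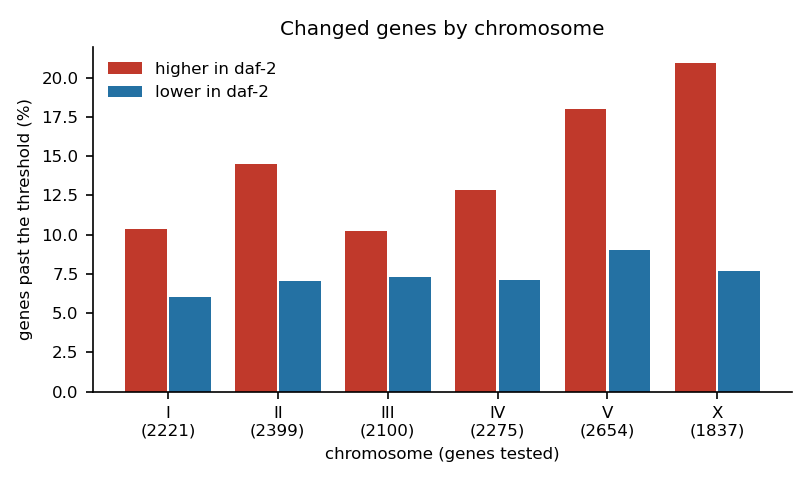
Percent of the genes tested on each chromosome (number in brackets) that were higher (red, left bar) or lower (blue, right bar) in daf-2 at an adjusted p under 0.05. X and V hold the largest shares of higher genes, 20.9% and 18%, and lower genes stay between 6.03% and 9.01%.

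Second probes mostly gave the same directions. Of 550 higher genes with another kept probe, every other probe had the same sign for 545 (99.1%), and of 279 lower genes for 267 (95.7%). These probes share the RNA and the arrays, so they check the probe and not the worms.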

How the data were processed

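The authors hybridised Cy3-labelled cRNA to one-colour Agilent arrays and deposited 12 scanner tables, per the file headers from Feature Extraction 10.10.1.1, holding the processed spot intensity (background-subtracted, linear scale) and flags for spots that were uneven, saturated (none) or well above background. They also deposited a series table on a linear scale, with no description of its scaling in the headers or labels. In it, an array's values equal its processed intensity times a constant, to within 0.0743 on the log2 scale, and it lists 24939 (sets A and B) or 35344 probes (set 1); it served as an alternative. Each array has 45220 spots, 1417 of them controls, and no counts, so the number of arrays limits precision.

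Control and uneven spots were left out, log2 of the deposited intensity was set relative to each array's 75th percentile, and repeat spots were averaged. A probe was kept where the 3 arrays of any 1 of the 4 groups all had it well above background, and the brightest probe stood for its gene. Of 43603 probes, 34320 matched 19814 genes by sequence name (30978) or accession (3342) in the RefSeq table of WBcel235, used for names and chromosomes alone. All 12 arrays were fitted with 1 mean per group (limma 3.58.1, R 4.3.3, Benjamini-Hochberg over 13486 genes, threshold 0.05). Tables and figures used numpy 2.4.6, pandas 2.3.3 and matplotlib 3.10.9 under Python 3.11.15.

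On simulated data for daf-2 versus N2 at 12 h, over 13224 genes, 19, 38, 46 and 47 of 50 genes were recovered at log2 changes of 1, 2, 3 and 4, with 10 false calls. The simulated noise was independent between arrays, with no difference between replicate sets, and far fewer genes were changed than passed in the data. These figures therefore need not hold for the data.

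Named genes were 15 fixed ones, the 15 largest rises and falls with a symbol and groups that do not overlap, and up to 4 changed members of each of 55 lists with the largest differences. Further list members and genes were named after their values were seen, among them the members given as not passing. The members and lists were chosen with earlier results of these data known. Source labels number sets A and 1 both as replicate 1; sets A and B shared a scan day.

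Tried as alternatives were other background correction and normalization, filters, probe rules, variance settings, the replicate set as a block, and leaving out each array or set.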

Additional observations from a re-analysis of the deposited data

Results flagged for a closer look

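Probes that match no gene in the annotation used here were outside the comparison of genes. Tested on their own in the same way, 461 of 3403 such probes (13.5%) passed an adjusted p under 0.05 between daf-2 and N2 worms after 12 h at 25 °C, with 305 higher and 156 lower. Across all kept probes 4885 of 26579 (18.4%) passed. They carry no name here and were not followed further.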

How the results depend on the processing

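The 2946 changed genes became 3013 with normexp and quantile normalization, 2839 with quantile normalization alone, 1636 with median centring and 2394 in the authors' table. No filter on dim probes gave 2208, probes above background on all 12 arrays gave 2288, and every probe tested on its own gave 4603 of 23176. A log2 limit of 1 left 1825. Array weights gave 6985, the replicate block 5025 and the block as a random term 4958. Leaving out 1 array gave 1609 to 3138, leaving out set B (1 slide) gave 788 and set A 848. The cause of these shifts was not tested, beyond the fewer arrays used where an array or a set was left out. Chosen after seeing the data, the block within the 6 arrays compared gave 2308, beside 2280 without it. Of the 2946 calls, none passed in the opposite direction under these alternatives, except 1 (par-2) in the authors' table; this was not counted for single probes.

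The pairing check gave correlations of deviations between daf-2 and N2 of 0.389, -0.39 and 0.132 in sets A, B and 1. The main fit did not take the set numbers as pairs. The check rests on 3 arrays a group, so it cannot decide whether the set belongs in the fit. The arrays of a set shared a slide, so the set is also a block of the design. With that block 5025 genes passed, among them 2945 of the 2946 main calls. With 3 arrays a group, small changes are under-detected, and genes near background on N2 arrays have uncertain folds. Position on the slide was never varied between groups.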
